A study of Schizosaccharomyces pombe with 8 samples.

Results

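The strain by peroxide interaction asks, gene by gene, whether H2O2 changes the level of a transcript to the same extent in fission yeast with and without DNA topoisomerase I. For each gene the log2 response of Δtop1 cells (treated minus untreated, means of 2 replicates) was taken, and the log2 response of wild-type (WT) cells was subtracted from it. A positive difference of responses therefore means that the transcript ended higher, relative to its untreated level, in Δtop1 cells. All 5165 genes of the deposited table belong to the comparison. A test was run for 5019 of them, those whose normalized counts averaged 10 or more across all 8 libraries. The groups were Δtop1 cells (RF14, h-, top1::kanMX6) given 1 mM H2O2 for 30 min, untreated Δtop1 cells, WT cells (972) given the same dose and time, and untreated WT cells. Each group held 2 biological replicates of log-phase cultures grown at 30 °C in YE5S, a rich medium. The deletion is 1 strain, so an effect of the missing gene and any other difference between the 2 strains cannot be told apart. Transcripts per cell were not measured, so each value is relative to the other transcripts of its library and not an amount per cell.

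Topoisomerase I nicks 1 strand of DNA and lets it turn, which releases the supercoils that a moving RNA polymerase leaves behind and in front of it. In fission yeast H2O2 activates the MAP kinase Sty1 and its transcription factor Atf1, which induce the common stress genes. The transcription factor Pap1 induces a separate set of antioxidant and transport genes at milder doses, and Hsf1 drives the genes of heat shock proteins. At the same time cells lower the transcripts for ribosome production.

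The libraries held between 16090015 and 19899720 reads on genes. The normalized counts, which are reads divided by a size factor of the library, summed to 17657867 and 19121368 in treated Δtop1 cells and 15738317 and 16217953 in untreated Δtop1 cells, against 20029904 and 20768094 in treated WT and 15174360 and 16345769 in untreated WT cells. The treated WT totals were thus above the treated Δtop1 totals, and the part of this in the results was tested only through other scalings. The top1 transcript had 244 and 244 normalized counts in treated Δtop1 cells and 309 and 286 in untreated Δtop1 cells, against 2013 and 2513 in treated WT cells and 1967 and 2150.4 in untreated WT cells. Every library thus matched the strain of its label, while these counts do not check the treatment. The difference of responses at top1 was -0.41 ± 0.17 (SE, adjusted p = 0.231).

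The response to H2O2 differed between the strains for 199 of 5019 genes (3.96%) at an adjusted p under 0.1. It was higher in Δtop1 for 107 genes (2.13%) and lower for 92 (1.83%). For the 107 genes the median response was 0.86 in Δtop1 and -0.14 in WT, and for the 92 genes it was -0.52 in Δtop1 and 0.28 in WT, all on the log2 scale. Over all genes tested the median difference was 0.01, with quartiles at -0.19 and 0.20. The difference reached 2-fold at 48 of the genes called higher and 28 of those called lower. It stood mainly in treated cells. The median of Δtop1 minus WT was 0.94 in treated and -0.0047 in untreated cells for the genes called higher, and -0.68 in treated and 0.07 in untreated cells for those called lower. In all 199 genes the lowest and highest differences of the 2 replicates in one strain lay apart from those in the other. The share of all genes with this property is not given, and top1, which was not called, had it too. The property therefore adds no support to the calls. Of the 5019 genes, 992 had an unadjusted p under 0.05.

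The number of calls rested on all 8 libraries. Without the first treated Δtop1 library 12 genes were called higher and 7 lower, and without the second 145 and 229. Without the first or second untreated Δtop1 library the counts were 19 and 6 or 21 and 12. Without the first or second untreated WT library they were 28 and 15 or 39 and 27, and without the first or second treated WT library 84 and 82 or 81 and 70. When the libraries were scaled to the same total, which moved the median of all genes to 0.18, 228 genes were called higher and 54 lower. With 2 libraries against 2 an exact permutation test cannot go below p = 0.333, so genes were called only by limma, a linear model whose variances are moderated across genes. The last gene called was mac1 (adjusted p = 0.0998) and the first one not called was ani2 (adjusted p = 0.1005).

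**Figure D1:**
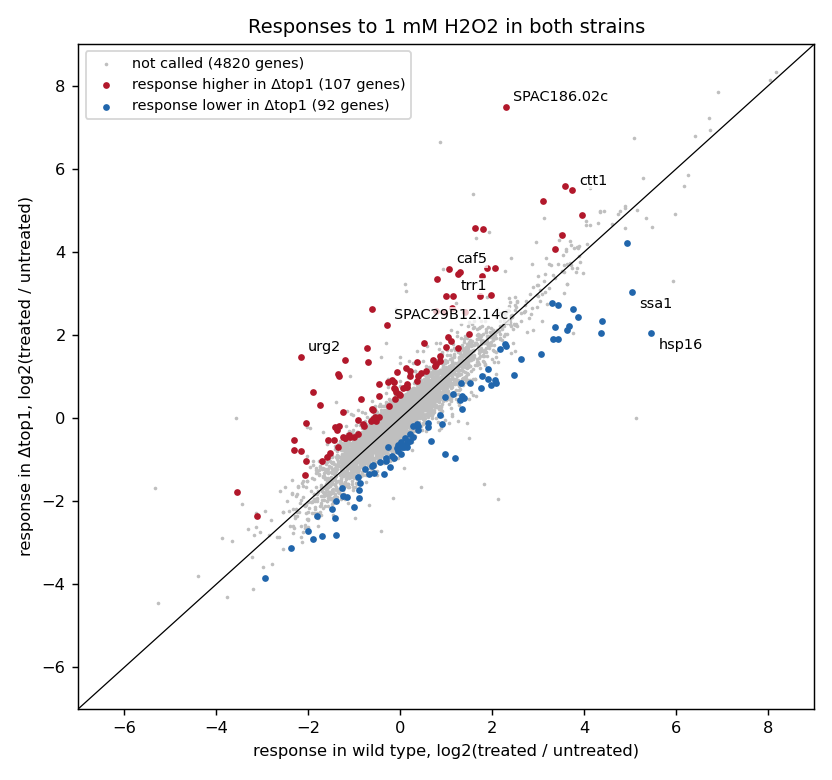
Log2 response to H2O2 in Δtop1 cells (vertical axis) against that in WT cells (horizontal axis) for the 5019 genes tested. The line marks equal responses; the 107 genes called higher in Δtop1 lie above it and the 92 called lower below it, with hsp16 and urg2 among the farthest from the line.

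The 10 largest differences among the genes called higher ran between 2.50 and 5.20 on the log2 scale. By annotation 3 of these genes encode transporters, 3 dehydrogenases, 2 uracil phosphoribosyltransferases and 1 a hydrolase, and urg3 carries no stated activity. The smallest p of the whole comparison belonged to SPAC29B12.14c, annotated as a purine transporter. SPAC29B12.14c had 6402 and 6863 normalized counts in treated Δtop1 cells and 1388 and 1407 in untreated Δtop1 cells, against 818 and 1033 in treated WT cells and 1120.4 and 1142 in untreated WT cells. Both treated Δtop1 libraries lay above both untreated ones, while the treated WT libraries lay below the untreated ones. The difference of log2 responses was 2.54 ± 0.16 (SE, adjusted p = 0.000791), and the gene stayed called whichever library was left out.

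The transcript of caf5, which encodes a plasma membrane transporter of the spermine family, had 9744 and 13013 normalized counts in treated Δtop1 cells and 822 and 1059 in untreated Δtop1 cells, against 1151 and 2669 in treated WT cells and 758 and 945 in untreated WT cells. Both treated Δtop1 libraries lay far above both treated WT libraries, and the untreated groups overlapped. The difference was 2.54 ± 0.49 (SE, adjusted p = 0.0543), and it stayed called in 3 of the 8 fits that left out a library. For hhy1, a subtelomeric gene annotated as a hydrolase, the values were 2066 and 2222 normalized counts in treated Δtop1 cells and 82.8 and 99.4 in untreated Δtop1 cells, against 147 and 276 in treated WT cells and 53 and 61.2 in untreated WT cells. The treated groups did not overlap, and the difference was 2.74 ± 0.37 (SE, adjusted p = 0.0177), called in 7 of the 8 reduced fits. The dehydrogenase gene osr1 had 2390.2 and 2448 normalized counts in treated Δtop1 cells and 241 and 237 in untreated Δtop1 cells, against 336 and 489 in treated WT cells and 208 and 261 in untreated WT cells. Its untreated groups overlapped and its treated groups did not, with a difference of 2.54 ± 0.25 (SE, adjusted p = 0.00956) that stayed called in all 8 reduced fits. Of the 31-base words of osr1, 16.7% occur in another gene, so some of its reads may be shared.

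SPCC1739.08c, annotated as a dehydrogenase, had 442 and 628 normalized counts in treated Δtop1 cells and 17.1 and 26.1 in untreated Δtop1 cells, against 74 and 168 in treated WT cells and 28.2 and 45.2 in untreated WT cells. Both Δtop1 libraries lay below both WT libraries in untreated cells and above them in treated cells. Its difference was 2.96 ± 0.59 (SE, adjusted p = 0.0563), called in 3 of the 8 reduced fits. SPAC186.02c, annotated as a hydroxyacid dehydrogenase, had 234 and 137 normalized counts in treated Δtop1 cells and 0 in both untreated Δtop1 libraries, against 50.1 and 49.7 in treated WT and 13.3 and 6.59 in untreated WT cells. With the untreated Δtop1 mean set to a floor of 3 reads per library (2.65 normalized counts), the response was at least 69.9-fold in Δtop1, against 5.03-fold in WT, and the ratio of the responses at least 13.9. The adjusted p at a pseudocount of 1 was 0.0155. A further gene among the leading ones, the transporter gene SPAC750.02c (3.24 ± 0.55 SE, adjusted p = 0.0403), shares all of its 31-base words with another gene, and its value is uncertain for that reason.

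The leading genes urg2, urg3 and uck2 lie close to each other on chromosome I. The urg genes were named for their induction by uracil, and urg2 and uck2 are annotated as uracil phosphoribosyltransferases, enzymes that turn uracil into UMP. The urg2 transcript had 21830.3 and 9644 normalized counts in treated Δtop1 cells and 6152 and 4444 in untreated Δtop1 cells, against 1627 and 549 in treated WT cells and 6777 and 2658 in untreated WT cells. In WT the treated libraries lay below the untreated ones, in Δtop1 above them, and in each group the first library was the higher one. The difference of 3.64 ± 0.85 (SE, adjusted p = 0.0795) was called in 2 of the 8 reduced fits. For uck2 the values were 1424 and 869 normalized counts in treated Δtop1 cells and 470.4 and 381 in untreated Δtop1 cells, against 204 and 169 in treated WT cells and 554 and 332 in untreated WT cells, with a difference of 2.60 ± 0.40 (SE, adjusted p = 0.0314). The direction of the response was again opposite in the strains, at 1.39 in Δtop1 and -1.20 in WT on the log2 scale. The urg3 transcript had 6402 and 3661 normalized counts in treated Δtop1 cells and 3375 and 2968 in untreated Δtop1 cells, against 1032 and 684 in treated WT cells and 3749 and 2592 in untreated WT cells, and its difference was 2.50 ± 0.41 (SE, adjusted p = 0.0348). All 3 genes had lower counts in treated than in untreated WT libraries, without overlap.

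The neighbours of urg1, the gene between urg3 and toe1, were then examined within 20 kb on either side, a region chosen after its values were seen. In the ASM294v3 assembly urg2 starts at position 1830609 of chromosome I and SPAC1399.06 ends at 1850358. Of the 16 genes that start within this distance, 5 were called higher and none lower, where 2.13% of all genes were called higher. These shares are no test of the region, since urg2, urg3 and uck2 were known as called when it was chosen. The 5 were urg2, urg3, toe1 (0.84), uck2 and SPAC1399.06 (1.37). urg1 itself had 25062 and 10123 normalized counts in treated Δtop1 cells and 6097 and 3992 in untreated Δtop1 cells, against 1606 and 437 in treated WT cells and 5736 and 1761 in untreated WT cells. As at urg2, the first library was the higher one in each group. The difference at urg1, 3.61 ± 1.02 (SE, adjusted p = 0.125), had the largest error of the 16 and did not pass. The genes fur4 (-0.22), which encodes a uracil permease, and SPAC1399.02 (-0.26) lie between called genes and were not called.

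**Figure D2:**
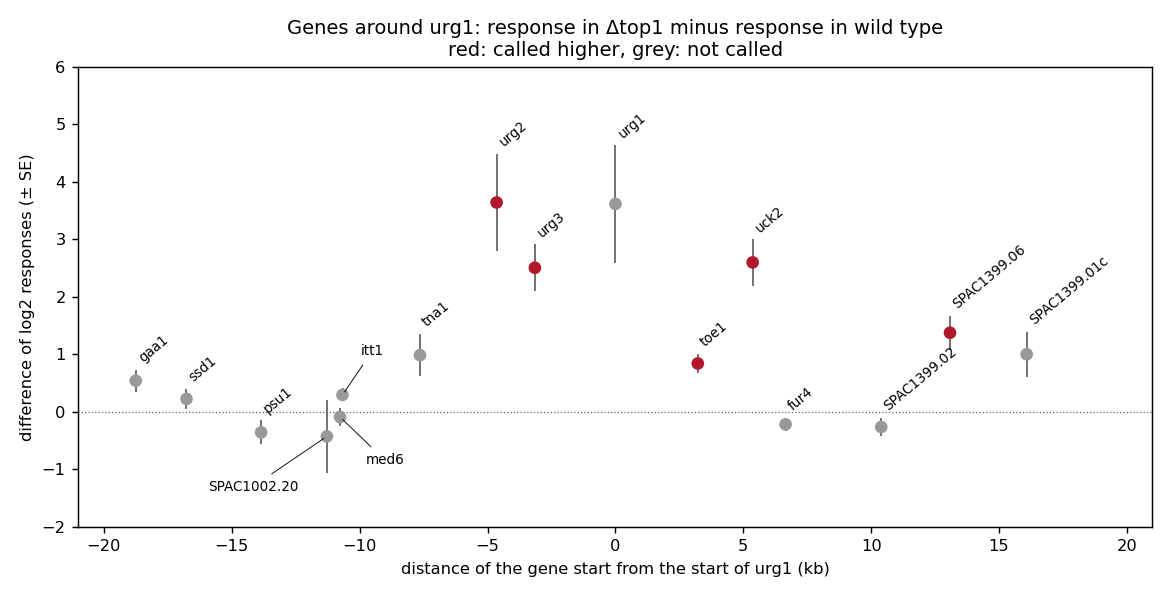
Difference of log2 responses (vertical axis, Δtop1 minus WT, bars are ± SE) of 16 genes plotted by the distance of their start from the start of urg1 in kb. The 5 genes called higher are in red; urg1 has the widest error, and fur4 and SPAC1399.02 sit near 0.

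**Figure D3:**
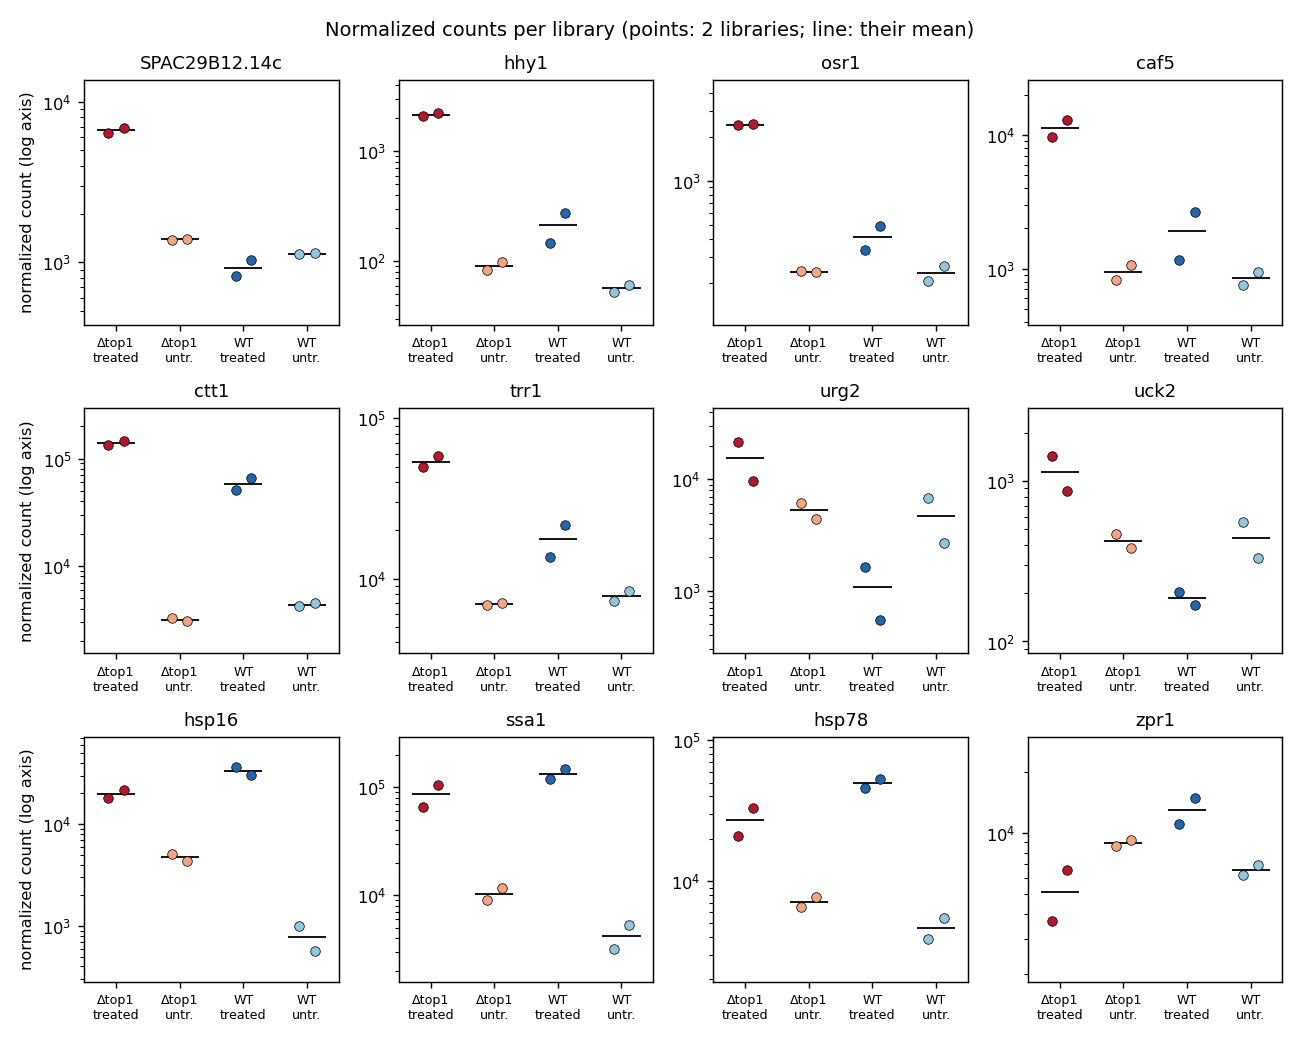
Normalized counts (log axis) of 12 genes in each library, with the treated and untreated groups of Δtop1 left of those of WT; points are the 2 libraries of a group and lines their mean. The first 8 genes responded more in Δtop1 and the last 4 responded less, with hsp16 and ssa1 higher in Δtop1 before treatment and lower after it.

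Among the 9 genes for peroxide scavenging and superoxide dismutases, 2 (22.2%) were called higher in Δtop1 and none lower, where 2.13% of all genes were called higher, and the median difference was 0.30 against 0.01 over all genes. Catalase, encoded by ctt1, breaks down H2O2. The ctt1 transcript had 134273 and 147064 normalized counts in treated Δtop1 cells and 3243 and 3069 in untreated Δtop1 cells, against 50464 and 65380.0 in treated WT cells and 4185 and 4476 in untreated WT cells. It was lower in Δtop1 before treatment and higher after it, with no overlap in either condition. The log2 response was 5.48 in Δtop1 and 3.73 in WT, a difference of 1.75 ± 0.20 (SE, adjusted p = 0.013) that stayed called whichever library was left out. Sulfiredoxin, encoded by srx1, restores the overoxidized peroxiredoxin Tpx1. srx1 had 12688 and 12159.9 normalized counts in treated Δtop1 cells and 387 and 458 in untreated Δtop1 cells, against 6072 and 7369 in treated WT cells and 385 and 489.8 in untreated WT cells. Only the treated groups were apart, and the difference was 0.94 ± 0.20 (SE, adjusted p = 0.0751), called in 3 of the 8 reduced fits. The peroxiredoxin gene tpx1 had 91666 and 112452 normalized counts in treated Δtop1 cells and 18256 and 21968 in untreated Δtop1 cells, against 51593 and 77288 in treated WT cells and 14649 and 23822 in untreated WT cells. Its treated groups did not overlap but its replicates varied widely, and the difference of 0.58 ± 0.39 (SE, adjusted p = 0.455) did not pass.

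The stretch of 250 bases before the annotated start of ctt1 is shown because Atf1 binds a short word, TGACGT, the core of the cAMP response element, and ctt1 is a textbook Atf1 target. The sequence is that of the minus strand, chrIII:58834-59083 of the RefSeq assembly ASM294v3, with the word in capitals.

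ctt1: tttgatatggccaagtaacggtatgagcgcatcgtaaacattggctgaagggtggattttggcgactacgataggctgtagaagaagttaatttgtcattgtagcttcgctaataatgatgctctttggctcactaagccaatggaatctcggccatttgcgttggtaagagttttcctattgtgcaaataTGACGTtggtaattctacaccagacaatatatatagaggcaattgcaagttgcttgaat

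The word stands once, 59 bases before the start. It was searched on both strands (TGACGT or ACGTCA), and was present before 5.60% of the 5003 tested genes that have a complete window of this length. It was present before 8 of 107 genes called higher (7.48%) and 6 of 92 called lower (6.52%). Among the 9 peroxide scavenging genes it was present before 3, namely ctt1, ccs1 and pmp20, of which only ctt1 was called. It was also present before 10 of the 57 genes (17.5%) that the study listed as more expressed in treated Δtop1 cells, a list made from these libraries. A match is a description of letters and not of binding. The longer palindrome TTACGTAA, which shares the letters ACGT with it, was present before 0.48% of tested genes and before none of the called genes.

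Of 12 genes for thioredoxin, glutaredoxin and methionine sulfoxide reduction, 1 was called higher (8.33%, against 2.13% of all genes) and none lower (median 0.09). This was trr1, thioredoxin reductase, which passes electrons from NADPH to thioredoxin. trr1 had 49384 and 57857 normalized counts in treated Δtop1 cells and 6836 and 7045 in untreated Δtop1 cells, against 13649 and 21711 in treated WT cells and 7251 and 8339 in untreated WT cells. The untreated Δtop1 libraries lay just under the WT ones and the treated ones far above. The difference was 1.80 ± 0.29 (SE, adjusted p = 0.0314), called in 4 of the 8 reduced fits. In the list of 22 glycolysis and fermentation genes the median was -0.36, while the 2 called members (9.09%, against 2.13% of all genes) were both higher. These were adh8, an alcohol dehydrogenase, and atd1, an aldehyde dehydrogenase. adh8 had 4569 and 3418 normalized counts in treated Δtop1 cells and 565 and 476 in untreated Δtop1 cells, against 773 and 957 in treated WT cells and 408 and 454 in untreated WT cells. The difference of 1.93 ± 0.23 (SE, adjusted p = 0.013) stayed called in all 8 reduced fits. For atd1 the values were 20913 and 18860.1 normalized counts in treated Δtop1 cells and 8002 and 10468 in untreated Δtop1 cells, against 11230.0 and 12699 in treated WT cells and 10248 and 15612 in untreated WT cells, with a difference of 1.2 ± 0.29 (SE, adjusted p = 0.0894) called in 1 of the 8. Neither enzyme belongs to the glycolytic steps themselves, and none of the other 20 members passed.

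Several genes of transport and of nitrogen use were called as well. Of 14 genes for iron, siderophore and heme uptake only str3, a siderophore-iron transporter, was called (7.14%, against 2.13% of all genes). str3 had 552 and 459.5 normalized counts in treated Δtop1 cells and 192 and 305 in untreated Δtop1 cells, against 201 and 139 in treated WT cells and 389 and 480.4 in untreated WT cells, and its difference was 2.42 ± 0.36 (SE, adjusted p = 0.0259). In WT the transcript was lower after treatment, and in Δtop1 it was higher. Of 21 genes for nitrogen starvation and permeases 3 were called higher (14.3%, against 2.13% of all genes) and 1 lower (4.76%, against 1.83%), with a median of 0.14. isp7, an oxygenase gene tied to sexual development and nitrogen sensing, had 3286 and 1920.4 normalized counts in treated Δtop1 cells and 1364 and 1141 in untreated Δtop1 cells, against 651 and 332 in treated WT cells and 1266 and 1104 in untreated WT cells. Its untreated groups overlapped and its difference was 2.35 ± 0.46 (SE, adjusted p = 0.0543). The peptide transporter gene ptr2 had 1118 and 537 normalized counts in treated Δtop1 cells and 2760.4 and 2611 in untreated Δtop1 cells, against 261 and 199 in treated WT cells and 2581 and 2784 in untreated WT cells. The transcript was lower with treatment in both strains, and less so in Δtop1, with a difference of 1.76 ± 0.41 (SE, adjusted p = 0.0785). The proline transporter gene put4 showed the same order, with a difference of 0.92 ± 0.17 (SE, adjusted p = 0.0537). In the opposite direction gln1, glutamine synthetase, had 737 and 741 normalized counts in treated Δtop1 cells and 6351 and 6716 in untreated Δtop1 cells, against 1184 and 1231 in treated WT cells and 5592 and 7124 in untreated WT cells, and its difference was -0.76 ± 0.16 (SE, adjusted p = 0.0734). Calls of these genes were lost without single libraries: that of str3 held in 7 of the 8 reduced fits, isp7 in 3, ptr2 in 2, put4 in 3 and gln1 in 3. No nitrogen gene was called higher without either untreated WT library, either untreated Δtop1 library or the first treated Δtop1 library, and 4 were without the second treated Δtop1 library.

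Subtelomeric genes, those within 100 kb of a chromosome end, included several of the leading genes. Of 160 tested, 15 (9.38%) were called higher and 3 (1.88%) lower, with a median of 0.17, where all genes gave 2.13%, 1.83% and 0.01. The most extreme differences of all genes tested, -5.12 and 5.78, belonged to subtelomeric genes that were not called. The called members include ctt1, hhy1, str3, put4, SPAC186.02c and SPAC750.02c on the higher side, together with are2, a sterol acyltransferase gene, at 0.52 ± 0.13 (SE, adjusted p = 0.0909). At are2 the difference stood in untreated cells, with Δtop1 minus WT at 0.06 in treated and -0.47 in untreated cells. pho1, which encodes an acid phosphatase, was on the lower side at -0.95 ± 0.15 (SE, adjusted p = 0.0314). The number called higher was 2 without the first treated Δtop1 library, 6 without either untreated Δtop1 library and 7 without the first untreated WT library.

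Several heat shock genes responded less in Δtop1. Among the genes called lower, the largest difference belonged to hsp16, a small heat shock protein that holds unfolded proteins. hsp16 had 17938 and 21483 normalized counts in treated Δtop1 cells and 5133 and 4355 in untreated Δtop1 cells, against 36157 and 30372 in treated WT cells and 1006 and 566 in untreated WT cells. Before treatment both Δtop1 libraries lay far above both WT libraries, and after treatment both lay below them. The log2 response was 2.05 in Δtop1 and 5.45 in WT, a difference of -3.40 ± 0.34 (SE, adjusted p = 0.00956) that stayed called whichever library was left out. In the list of 8 small heat shock and glyoxalase III genes 2 were called in each direction (25%, against 2.13% higher and 1.83% lower over all genes). The median of this list was 0.33, with 5 members above 0 (62.5%, against 51.6% of all genes). hsp16 and hsp20 were lower, hsp20 with -0.97 ± 0.21 (SE, adjusted p = 0.0753), while the 2 glyoxalase III genes hsp3105 (2.20 ± 0.50 SE, adjusted p = 0.0773) and hsp3103 (0.63 ± 0.13 SE, adjusted p = 0.0679) were higher. hsp3105 had 269 and 161 normalized counts in treated Δtop1 cells and 13.3 and 22.8 in untreated Δtop1 cells, against 70.8 and 57.1 in treated WT cells and 28.2 and 22.6 in untreated WT cells. Its call was kept in 1 of the 8 reduced fits.

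All 18 large chaperones and co-chaperones had a difference below 0, where 48.4% of all genes lay below 0. The median of the 18 was -0.82, and 6 were called lower and none higher, where 1.83% of all genes were called lower. The 6 were ssa1, hsp78, hsp104, sti1, mas5 and psi1. The first of these, ssa1, encodes an Hsp70 chaperone. ssa1 had 65367 and 105889.7 normalized counts in treated Δtop1 cells and 8915 and 11664 in untreated Δtop1 cells, against 119821 and 147056 in treated WT cells and 3149 and 5241 in untreated WT cells. As at hsp16, Δtop1 was above WT before treatment and below it afterwards, without overlap. The response was 3.03 in Δtop1 and 5.03 in WT, and the difference was -2.0 ± 0.42 (SE, adjusted p = 0.07). hsp78, a mitochondrial disaggregase, had 20761 and 33233 normalized counts in treated Δtop1 cells and 6504 and 7731 in untreated Δtop1 cells, against 45784 and 53149 in treated WT cells and 3853 and 5480.0 in untreated WT cells. The same order held, with a difference of -1.53 ± 0.34 (SE, adjusted p = 0.0769). hsp104, the cytosolic disaggregase, had 29822 and 46322 normalized counts in treated Δtop1 cells and 5986 and 8059 in untreated Δtop1 cells, against 64779 and 60112 in treated WT cells and 3466 and 5251 in untreated WT cells, with a difference of -1.45 ± 0.37 (SE, adjusted p = 0.0995). sti1, a co-chaperone of Hsp70 and Hsp90, had 22404 and 32223 normalized counts in treated Δtop1 cells and 14216 and 15692 in untreated Δtop1 cells, against 42661 and 49500.3 in treated WT cells and 9708 and 12158 in untreated WT cells, with a difference of -1.23 ± 0.27 (SE, adjusted p = 0.0769). In these 4 genes the treated Δtop1 libraries lay below the treated WT libraries and the untreated Δtop1 libraries above the untreated WT libraries. Over the 18 genes the median of Δtop1 minus WT was -0.62 in treated and 0.14 in untreated cells.

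The count of 6 was 0 without either untreated Δtop1 library, the first untreated WT library, the second treated WT library or the first treated Δtop1 library, was 2 without the second untreated WT library, and was 13 without the second treated Δtop1 library. The median of the 18 genes stayed below 0 in each of these fits, between -1.04 and -0.59. It was -0.65 with the libraries scaled to the same total, where the median of all genes was 0.18, and -0.45 after quantile normalization, and 1 of the 18 was above 0 in each of these. DESeq2 on the recovered reads called 13 of the 18 lower.

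The 250 bases before the start of ssa1 are shown because Hsf1 binds inverted repeats of the letters GAA, written here as GAANNTTCNNGAA or, on the other strand, TTCNNGAANNTTC. This word was chosen after the values were seen. The sequence is that of the minus strand, chrI:2297965-2298214 of ASM294v3, with the match in capitals.

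ssa1: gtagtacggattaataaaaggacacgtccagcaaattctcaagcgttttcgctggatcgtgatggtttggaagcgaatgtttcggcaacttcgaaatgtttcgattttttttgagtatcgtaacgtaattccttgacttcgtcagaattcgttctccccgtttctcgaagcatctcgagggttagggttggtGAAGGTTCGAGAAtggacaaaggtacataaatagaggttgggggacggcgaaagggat

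The match starts 58 bases before the annotated start. Such a word was present before 0.44% of the 5003 tested genes with a complete window. It was present before 2 of the 92 genes called lower (2.17%), ssa1 and wis2, and before 2 of the 18 chaperone genes, ssa1 and ssa2. It was absent in this form from the windows of the 107 genes called higher, which says nothing of Hsf1 there.

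Other genes with large lower differences include several without a known product. zpr1, a zinc finger protein that binds elongation factor 1 alpha, had 3684 and 6539 normalized counts in treated Δtop1 cells and 8609 and 9175 in untreated Δtop1 cells, against 11121 and 14931 in treated WT cells and 6164 and 6944 in untreated WT cells. Its counts were lower after treatment in Δtop1 and higher in WT, with log2 responses of -0.86 in Δtop1 and 0.98 in WT and a difference of -1.83 ± 0.35 (SE, adjusted p = 0.0543). SPCC338.18 had 1006 and 1043 normalized counts in treated Δtop1 cells and 232 and 178 in untreated Δtop1 cells, against 1093 and 1290.2 in treated WT cells and 74.6 and 42.4 in untreated WT cells. The treated groups nearly met and the untreated groups did not, and its difference was -2.05 ± 0.35 (SE, adjusted p = 0.0419). SPAPB24D3.07c had 2353 and 2037 normalized counts in treated Δtop1 cells and 6137 and 2948 in untreated Δtop1 cells, against 6947 and 5058 in treated WT cells and 3321 and 2013 in untreated WT cells, a difference of -2.15 ± 0.49 (SE, adjusted p = 0.0773) with wide replicates. SPAC9G1.14 had 42.8 and 57.9 normalized counts in treated Δtop1 cells and 14.3 and 8.96 in untreated Δtop1 cells, against 287 and 176 in treated WT cells and 8.29 and 12.2 in untreated WT cells, so that its difference of -2.31 ± 0.55 (SE, adjusted p = 0.0815) stood in the treated cells. The untreated groups overlapped. The remaining genes of this rank were SPAPB1A10.05 (-1.51 ± 0.30 SE, adjusted p = 0.0576), slt1 (-1.50 ± 0.34 SE, adjusted p = 0.0778) and SPBC1105.13c (-1.46 ± 0.27 SE, adjusted p = 0.0543), all of which had higher counts after treatment in both strains, and less so in Δtop1.

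Transcripts for protein synthesis had small negative differences, few of which passed the test. Of 136 genes for cytosolic ribosomal proteins, 132 (97.1%) had a difference below 0, against 48.4% of all genes. The median of the 136 was -0.51, and 9 were called lower (6.62%, against 1.83% of all genes) and none higher. The median log2 response was -0.48 in Δtop1 and 0.03 in WT, and the median of Δtop1 minus WT was -0.50 in treated and -0.00046 in untreated cells. rpl802 had 7027 and 8818 normalized counts in treated Δtop1 cells and 14447 and 14512 in untreated Δtop1 cells, against 14518 and 14724 in treated WT cells and 14714 and 14146 in untreated WT cells, with a difference of -0.90 ± 0.17 (SE, adjusted p = 0.0543). Only the treated Δtop1 libraries stood apart from the other groups. rpl102 had 4558 and 4646 normalized counts in treated Δtop1 cells and 7887 and 8182 in untreated Δtop1 cells, against 8923 and 7263 in treated WT cells and 8953 and 7802 in untreated WT cells, and its difference was -0.75 ± 0.17 (SE, adjusted p = 0.0769). rpl1201 (-0.83 ± 0.16 SE, adjusted p = 0.0543) and rpl2002 (-0.77 ± 0.18 SE, adjusted p = 0.0795) were called too. Of these, rpl802, rpl1201 and rpl2002 share 31-base words with other genes, at 18.9%, 86.2% and 10.8%, so their reads may be divided between copies.

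The 9 calls depended on the fit. The count was 94 without the second treated Δtop1 library and 67 with DESeq2. It was 4 without the second treated WT library, 1 without the first treated WT library or the first untreated WT library, and 0 without any one of the other 4. The median stayed between -0.66 and -0.35 over the 8 fits. It was -0.34 at equal totals, where the median of all genes was 0.18, and -0.24 after quantile normalization, with 2 calls.

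Of 125 ribosome biogenesis factors, 6 were called lower (4.8%, against 1.83% of all genes) and none higher. The median of the 125 was -0.27, and 19 lay above 0 (15.2%, against 51.6% of all genes). Their transcripts were lower with treatment in both strains, at a median of -1.43 in Δtop1 and -1.07 in WT. noc4, of the small subunit processome, had 844 and 887 normalized counts in treated Δtop1 cells and 2191 and 2174 in untreated Δtop1 cells, against 1230.4 and 1413 in treated WT cells and 1899 and 2049.6 in untreated WT cells, with a difference of -0.75 ± 0.13 (SE, adjusted p = 0.0456). kri1 had 825 and 829 normalized counts in treated Δtop1 cells and 3135 and 3075 in untreated Δtop1 cells, against 1250.0 and 1464 in treated WT cells and 2904 and 3186 in untreated WT cells, with a difference of -0.74 ± 0.14 (SE, adjusted p = 0.0537). Both untreated groups lay close together and the treated Δtop1 libraries below the treated WT libraries. The other called members were rlp24 (-0.71), rbp28 (-0.70), nmd3 and rrp14. Without single libraries the count was 18 without the first treated WT library, 10 without the second treated Δtop1 library, 3 or 4 without the second library of untreated or treated WT, and 0 without any one of the other 4. No translation factor of 40 was called, but their median was -0.35. The same held for 65 genes of amino acid biosynthesis (median -0.35), 16 of the citric acid cycle (-0.30) and 20 subunits of RNA polymerases I and III (-0.26). Scaling to equal totals moved these medians along with that of all genes (0.18), to -0.18 for translation factors, -0.17 for amino acid biosynthesis and -0.13 for the citric acid cycle.

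The difference was lower in genes with higher counts. The tested genes were divided into 5 groups of equal size by mean normalized count. From the lowest to the highest group the median difference was 0.15, 0.10, 0.05, -0.03 and -0.22. In the highest group 10 genes were called higher and 45 lower, which is 48.9% of all genes called lower. In the lowest group 26 were called higher and 6 lower. Within the highest group 9 of the 132 ribosomal protein genes (6.82%) were called lower, against 36 of the 872 other genes (4.13%), whose median was -0.18. Levels of the other lists are not given, and every count of noc4 and kri1 lay below 3427, where the highest group starts. The part of level in the lower calls among chaperones and ribosomal proteins was not tested. Genes without an intron were called higher in 3.08% and lower in 2.77% of 2561 cases, those with 1 intron in 0.91% and 1.09% of 1102, and those with 2 or more in 1.34% and 0.67% of 1340. In 5 equal groups by transcript length the medians ran only between -0.07 and 0.08, and in the highest of 5 groups by GC content the median was -0.17.

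**Figure D4:**
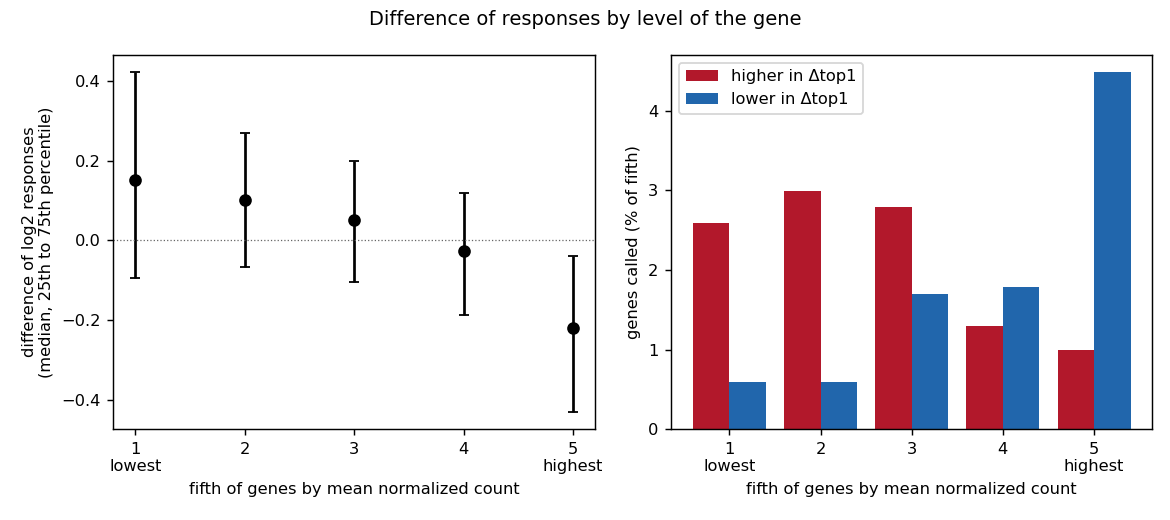
Left, median difference of log2 responses (bars span the 25th to 75th percentiles) in 5 equal groups of genes by mean normalized count. Right, percentage of each group called higher or lower in Δtop1; the share called lower is largest (4.48%) in the group with the highest counts.

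Genes that the study lists as induced by H2O2 did not move one way. Of 491 tested, 24 were called higher (4.89%, against 2.13% of all genes) and 22 lower (4.48%, against 1.83%), with a median difference of 0.03 and median responses of 1.83 in Δtop1 and 1.78 in WT. Leaving out 1 library gave 4 to 22 higher and 1 to 30 lower, with 4 higher without the first treated Δtop1 library and 1 lower without the first untreated WT library. Those lists were made from these libraries and are not independent evidence of a direction. The 57 genes that the study listed as more expressed in treated Δtop1 cells were chosen on the same treated libraries. The study also left out genes altered in untreated Δtop1 cells. Positive differences were thus largely set by the choice of the list, and their share is no support. All 57 lay above 0, with a median of 0.94, and 21 of them were called higher (36.8%, against 2.13% of all genes). That count was 4 without the first treated Δtop1 library, 6 or 7 without the first or second untreated Δtop1 library, 11 or 9 without the first or second untreated WT library, and 16 to 19 without any one of the other 3. The 55 control genes of the study had a median of 0.02 and no call. The study describes them as unchanged by H2O2 in the same transcriptome data, so this result was largely set by their choice. Among the genes that the study names, 3 more had differences between -0.25 and 0.28. hsp9 had 112486 and 121869 normalized counts in treated Δtop1 cells and 14782 and 11722 in untreated Δtop1 cells, against 86424 and 74974 in treated WT cells and 12547 and 9632 in untreated WT cells, a difference of 0.28 ± 0.26 (SE, adjusted p = 0.592). gpd1, glycerol-3-phosphate dehydrogenase, had 117038 and 116608 normalized counts in treated Δtop1 cells and 28231 and 21605 in untreated Δtop1 cells, against 121162 and 111294 in treated WT cells and 21441 and 20000.3 in untreated WT cells, a difference of -0.25 ± 0.25 (SE, adjusted p = 0.629). atf1 itself had 7938 and 8071 normalized counts in treated Δtop1 cells and 1550.2 and 1935 in untreated Δtop1 cells, against 8612 and 7997 in treated WT cells and 1381 and 1759 in untreated WT cells, a difference of -0.20 ± 0.20 (SE, adjusted p = 0.608). None of these passed, and their errors are about as large as the differences.

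**Figure D5:**
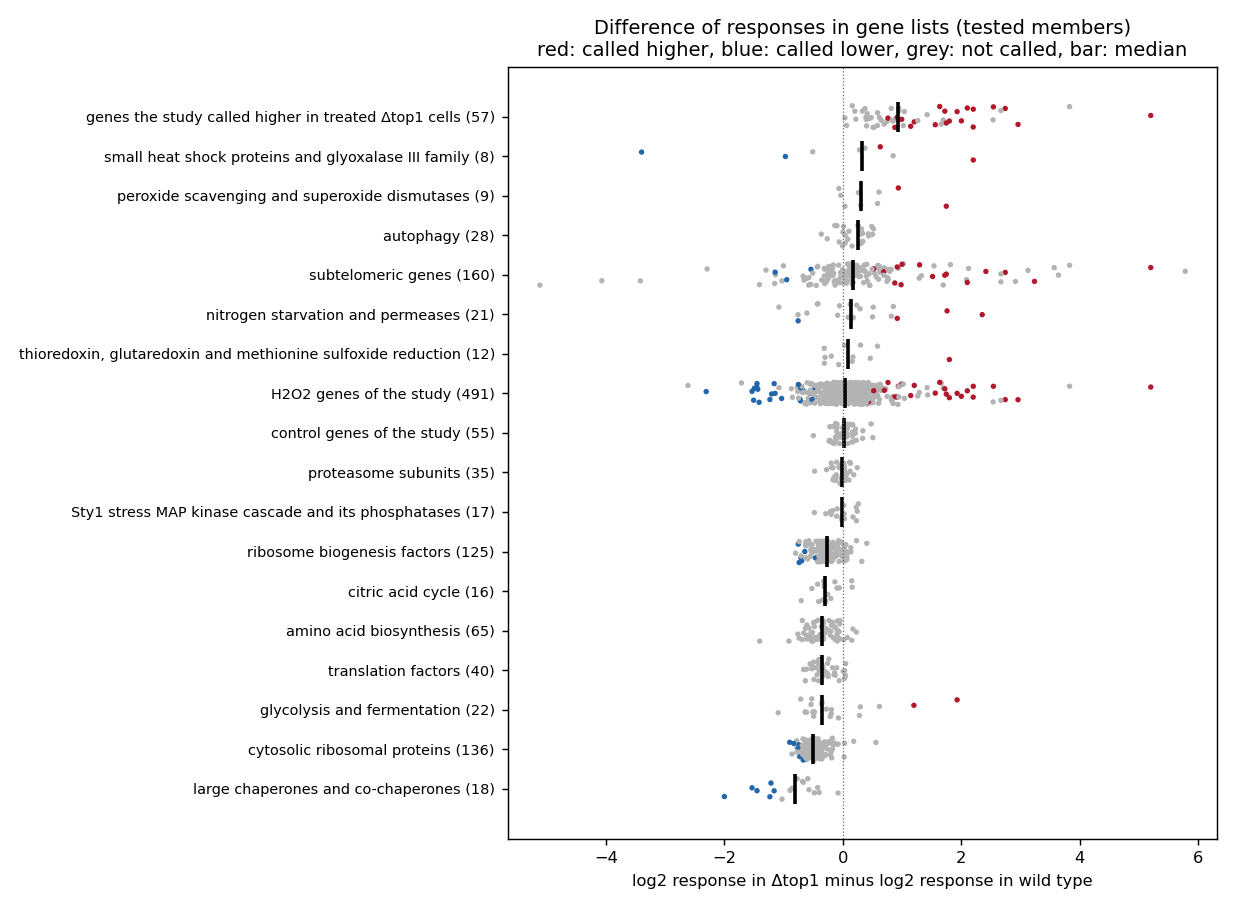
Difference of log2 responses (horizontal axis, Δtop1 minus WT) of the tested members of 18 gene lists, with the number tested in brackets; red points were called higher, blue lower, and bars are medians. The bars of chaperones (-0.82) and ribosomal proteins (-0.51) lie left of 0, and that of the study's own 57 genes (0.94) lies right of it.

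Of the 48 gene lists, 23 held no called gene among 511 entries, with medians from -0.35 to 0.26. They are grouped here by having no call. Over all genes 3.96% were called in either direction, so a short list without a call says little. The Sty1 cascade (17 genes, median -0.02) and the proteasome (35, -0.01) were among them, as were core histones (11, -0.11), ATP-dependent chromatin remodelers (10, 0.05), topoisomerases and linked repair factors (8, 0.19) and autophagy (28, 0.26). Autophagy genes lay above 0 in 22 of 28 cases (78.6%, against 51.6% of all genes). These shares depend on the scaling, since at equal totals 26 of the 28 and 3662 of the 5019 genes lay above 0. Of 33 DNA repair and checkpoint genes, 1 was called higher (3.03%, against 2.13% of all genes) and 2 lower (6.06%, against 1.83%), and leaving out 1 library gave 0 to 2 in each direction. The higher one was rad3, the ATR checkpoint kinase, with 1952 and 1768 normalized counts in treated Δtop1 cells and 1136 and 1121 in untreated Δtop1 cells, against 858 and 1048 in treated WT cells and 1008 and 1083 in untreated WT cells and a difference of 0.86 ± 0.16 (SE, adjusted p = 0.0537). The lower ones were rad54 (-0.67 ± 0.16 SE, adjusted p = 0.078), a recombination helicase, and rhp16 (-0.75 ± 0.14 SE, adjusted p = 0.0543), of nucleotide excision repair. Both had higher counts with treatment in both strains, and less so in Δtop1. For rad54 Δtop1 minus WT was -0.37 in treated and 0.30 in untreated cells, and for rhp16 -0.26 and 0.49.

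Single members were called in several other lists. vps24, a subunit of the ESCRT-III complex that sorts membrane proteins, had 932 and 1070.3 normalized counts in treated Δtop1 cells and 839 and 896 in untreated Δtop1 cells, against 2304 and 2159 in treated WT cells and 951 and 812 in untreated WT cells. Its treated groups were far apart, with a difference of -1.14 ± 0.16 (SE, adjusted p = 0.0177). The difference at vps24 ran between -1.253 and -1.025 over the 8 reduced fits. Of the 37 vacuolar sorting genes, 29 lay above 0 (78.4%, against 51.6% of all genes). gld1, glycerol dehydrogenase, differed by -1.17 ± 0.28 (SE, adjusted p = 0.0894), scr1, a repressor of glucose-repressed genes, by -0.52 ± 0.13 (SE, adjusted p = 0.0981), and gas5, a glucanosyltransferase of the cell wall, by -0.56 ± 0.12 (SE, adjusted p = 0.0773). The alpha-amylase homologue aah3 differed by -0.55 ± 0.12 (SE, adjusted p = 0.0773) and atp11, a chaperone of the F1-ATPase, by -0.66 ± 0.15 (SE, adjusted p = 0.0778). On the higher side were cox14 (1.00 ± 0.19 SE, adjusted p = 0.0543), for assembly of cytochrome c oxidase, mrpl17 (0.67 ± 0.14 SE, adjusted p = 0.0751), of the mitochondrial ribosome, byr2 (0.52 ± 0.12 SE, adjusted p = 0.0778), a kinase of the mating pathway, and slm9 (0.48 ± 0.11 SE, adjusted p = 0.081), of the HIR histone chaperone complex. Of the 109 mug and meu genes, mug108 (1.56 ± 0.35 SE, adjusted p = 0.0773) and mug163 (0.79 ± 0.20 SE, adjusted p = 0.0956) were higher and mug35 (-1.15 ± 0.20 SE, adjusted p = 0.0456) and mug73 (-0.78 ± 0.17 SE, adjusted p = 0.0754) lower, which is 1.83% in each direction, against 2.13% higher and 1.83% lower over all genes. The adjusted p of these calls ran from 0.0177 to 0.0981, and leaving out a library ended each of them in at least 1 fit.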

How the data were processed

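The authors sequenced poly(A) RNA as single reads of 50 bases from stranded libraries. By the paper's methods reads were assigned with Salmon on ASM294v2; the submitters' processing notes name STAR and HTSeq on the same build, so how reads of similar genes were divided is unclear. The deposited signal values are normalized counts, reads divided by a size factor of the library, as DESeq2 gives them. Whole reads were recovered for 5164 of 5165 genes per library (99.98%, tolerance 0.01 reads). Counting floors cover counting error only.

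The values were taken as log2 with a pseudocount of 1 and fitted with limma 3.58.1 (R 4.3.3): a mean for each of the 4 groups, variances with a trend, Benjamini-Hochberg adjustment over 5019 genes, two-sided. Calls needed an adjusted p under 0.1. The fit was tested on simulated data. Alternatives were other pseudocounts, count minimums, scalings, thresholds, a replicate block, count models on the recovered reads (DESeq2 1.42.0 and edgeR 4.0.16), and each library left out. Gene positions, names and sequences are from RefSeq ASM294v3, with 5129 of 5165 identifiers matched by name and no coordinates carried between builds. Genes and lists were chosen with earlier results of these data known. Named genes are top1, the 10 largest called differences in each direction, up to 4 called members by size in each of 48 lists, and 8 genes the paper names; genes outside this rule were picked after their values were seen. A further list is not reported here.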

Additional observations from a re-analysis of the deposited data

Results flagged for a closer look

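The interaction is itself a test of whether 2 strains respond differently, so the genes picked by the naming rule that passed it are given here by their difference of log2 responses (Δtop1 minus WT). In all, 107 genes were higher and 92 lower. Among the named genes that responded more in Δtop1 cells, it was 5.20 at SPAC186.02c, 3.64 at urg2, 3.24 at SPAC750.02c, 2.96 at SPCC1739.08c, 2.74 at hhy1, 2.60 at uck2, 2.54 at SPAC29B12.14c, 2.54 at caf5, 2.54 at osr1, 2.50 at urg3, 2.42 at str3 and 2.35 at isp7. Smaller positive values were 2.20 at hsp3105, 1.93 at adh8, 1.80 at trr1, 1.76 at ptr2, 1.75 at ctt1, 1.56 at mug108, 1.2 at atd1, 1.00 at cox14, 0.94 at srx1, 0.92 at put4, 0.86 at rad3 and 0.79 at mug163. The remaining positive values were 0.67 at mrpl17, 0.63 at hsp3103, 0.52 at are2, 0.52 at byr2 and 0.48 at slm9. Among those that responded less, it was -3.40 at hsp16, -2.31 at SPAC9G1.14, -2.15 at SPAPB24D3.07c, -2.05 at SPCC338.18, -2.0 at ssa1, -1.83 at zpr1, -1.53 at hsp78, -1.51 at SPAPB1A10.05, -1.50 at slt1, -1.46 at SPBC1105.13c, -1.45 at hsp104 and -1.23 at sti1. Further negative values were -1.17 at gld1, -1.15 at mug35, -1.14 at vps24, -0.97 at hsp20, -0.95 at pho1, -0.90 at rpl802, -0.83 at rpl1201, -0.78 at mug73, -0.77 at rpl2002, -0.76 at gln1, -0.75 at noc4 and -0.75 at rhp16. Values nearer to 0 were -0.75 at rpl102, -0.74 at kri1, -0.71 at rlp24, -0.70 at rbp28, -0.67 at rad54, -0.66 at atp11, -0.56 at gas5, -0.55 at aah3 and -0.52 at scr1. The value at SPAC186.02c depends on the pseudocount, since both untreated Δtop1 libraries had no read there. Groups of 2 libraries are too small for a search for single stray libraries.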

How the results depend on the processing

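Against the 107 genes higher and 92 lower, other pseudocounts, count minimums and TMM scaling kept both counts within 1.5 times. The number called higher was 228 at equal totals, 68 after quantile normalization and 431 with the replicate block, and 30 at an adjusted p under 0.05 and 261 on a fold of 1.5 alone. The number called lower was 54 at equal totals, 62 after quantile normalization, 43 for limma without the trend, 448 with the replicate block and 222 with DESeq2, and 15 at an adjusted p under 0.05 and 251 on a fold of 1.5 alone. DESeq2 called 150 higher, of which 105 were among the 107, and edgeR called 108 higher and 84 lower. Leaving out 1 library gave between 12 and 145 higher and between 6 and 229 lower. Part of this loss is built in, since a group is left with 1 library, assumed to vary like the others. The replicate numbers pair the libraries only by number: deviations of same-numbered libraries correlated between 0.066 and 0.617 over the 6 pairs of groups, and with 2 numbers the pairing could not be tested further. In a fit without 1 library a called gene could not change direction, because its replicate responses lay apart in the strains. None of the 62 named genes that were called changed direction under any other alternative. Of these, 29 stayed called in all 12 fits with every library, and 5 (SPAC29B12.14c, osr1, adh8, ctt1 and hsp16) in all 8 fits without 1 library. Depth limits genes such as SPAC186.02c and SPAC9G1.14, with few reads in a group.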

Other observations

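Further genes of nucleobase use stood among those called higher, and they were picked here after their values were seen. Uricase, encoded by uro1, opens the ring of urate. uro1 had 250.2 and 270.4 normalized counts in treated Δtop1 cells and 464 and 443 in untreated Δtop1 cells, against 81.7 and 93.1 in treated WT cells and 378 and 415 in untreated WT cells. The transcript was lower with treatment in both strains, and less so in Δtop1, with a difference of log2 responses of 1.37 ± 0.18 (SE, adjusted p = 0.0155). The dioxygenase gene xan1, whose product turns xanthine into urate, had 375 and 336 normalized counts in treated Δtop1 cells and 498 and 375 in untreated Δtop1 cells, against 199 and 151 in treated WT cells and 441 and 459.6 in untreated WT cells, with a difference of 1.09 ± 0.25 (SE, adjusted p = 0.0778). The treated groups did not overlap and the untreated groups did. urk1, annotated as uridine kinase and uracil phosphoribosyltransferase, had 1120.5 and 814 normalized counts in treated Δtop1 cells and 1448 and 1326 in untreated Δtop1 cells, against 479 and 451 in treated WT cells and 1509.9 and 1285 in untreated WT cells, with a difference of 1.05 ± 0.22 (SE, adjusted p = 0.0669). SPCC576.02, of the hydantoin racemase family, closes a run of 3 adjacent genes called higher on chromosome III, with xan1 and SPCC576.19c. SPCC576.02 had 1595 and 1817 normalized counts in treated Δtop1 cells and 529 and 527 in untreated Δtop1 cells, against 294 and 452 in treated WT cells and 581 and 634 in untreated WT cells. Its treated Δtop1 libraries lay above every other library and its treated WT libraries below every untreated one, with a difference of 2.42 ± 0.26 (SE, adjusted p = 0.00956). No list of nucleobase genes was tested as a whole.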
